A study of Homo sapiens with 4 samples.

Results

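The insulin-like growth factor (IGF) axis was described here through 10 genes of A549 xenograft tumors, chosen by name: the binding protein genes IGFBP1 to IGFBP7, the receptor genes IGF1R and IGF2R, and the adaptor gene IRS2. All 10 were found among the 38137 genes of the count tables. A549 is a human non-small cell lung cancer (NSCLC) line, and tumors were grown from it in the flank of male BALB/c athymic nude mice that were 6 weeks old. The 4 groups were the combination of aerobic exercise and radiation, radiation alone, aerobic exercise alone, and control, with 1 RNA library per group and 5 mice per group. Irradiated tumors received 2 Gy in each session, and exercised mice ran on a treadmill at 8.0 m/min, 30 min a time. Either treatment was repeated in 3 sessions a week over 2 weeks, and in the combination group the run preceded the irradiation on the same day. All tumors came from the same line in hosts that lack mature T cells but keep macrophages, vessels and fibroblasts, and the sources used here do not state how many tumors went into a library.

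IGF1 and IGF2 are secreted growth factors that act through IGF1R, a receptor tyrosine kinase, which passes the signal to adaptors such as IRS2 and from there to PI3K and AKT. The binding proteins hold the ligands in the extracellular space and so limit or prolong their action, and IGF2R takes up IGF2 and carries it to the lysosome. IGFBP3 is a known target gene of p53 as well as the main carrier of IGFs in serum. In lung cancer, IGF1R signaling is known for its part in growth and in survival after DNA damage.

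Reads assigned to genes totalled 33432637 in the combination group, 35408705 with radiation alone, 34304760 with exercise alone and 34602535 in control. Levels are given as CPM, reads of a gene per 1000000 reads of the library, after TMM scaling, which corrects for differences in library composition. No group has a replicate library, so no test was run and no p-value is given: the 95% intervals are exact intervals from the read counts and cover counting error only, not the spread between tumors. A difference of at least 2-fold, the threshold of the study, is used as a description, over the 19393 genes with a mean of at least 20 reads per library; all 10 IGF axis genes were among these.

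Marker genes were used to describe the libraries. The 5 epithelial markers of the A549 cells were abundant, with summed levels of 5639, 4857, 4689 and 4989 CPM in the combination, radiation, exercise and control libraries. Of 12 fibroblast markers, 10 were compared, and their summed level over the whole list was 208 CPM in the combination, 253 with radiation alone, 379 with exercise alone and 372 in control; THY1 had at most 3 reads in every library. The 8 endothelial markers summed to 8.24, 12.3, 17.2 and 21.8 CPM in the same order, with at most 21 reads for CDH5 and at most 8 for VWF. The 7 macrophage markers summed to 497, 432, 366 and 376 CPM, with 7 to 15 reads of the leukocyte marker PTPRC. The 10 skeletal muscle markers summed to 67.7, 64.0, 25.7 and 23.7 CPM, with 0 reads of MYH1 and MYH2 in control. The irradiated libraries thus differed from the unirradiated ones in the fibroblast, endothelial, macrophage and muscle marker sums as well as in the IGF axis. Reads were matched to human genes, so marker reads from the A549 cells and from mouse cells cannot be told apart. Fewer cells of a type and less RNA per cell cannot be told apart either. The part of these markers in the results below was not tested.

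The genes that differed by at least 2-fold in some comparison were IGFBP6, IGFBP3 and IGFBP2, and the sequence around the start of each is shown. Their levels separated the irradiated from the unirradiated libraries, as did those of IGFBP1, IGFBP4, IGF1R, IGF2R and IRS2. The share of all genes that did so was not counted, so the separation is not read as a trait of these genes. For IGF2R the gap was small, at 118 and 120 CPM against 109 and 108. Each window of 300 bases runs from 250 bases before to 50 bases after a RefSeq transcription start (GRCh38.p14), 5′ to 3′ on the strand of the gene. Capitals mark matches to GGGCGG (the GC box, bound by SP1), to TATATA (resembling the box that TBP binds) and to TGTTTAC (the core of a forkhead site), each searched on both strands and, where it lies on the other strand, shown as its reverse complement. The IGFBP6 window lies at chr12:53097417-53097716 (plus strand), the IGFBP3 window at chr7:45921223-45921522 (minus strand), and the IGFBP2 window at chr2:216633170-216633469 (plus strand), the middle one of 3 start windows listed for that gene.
IGFBP6: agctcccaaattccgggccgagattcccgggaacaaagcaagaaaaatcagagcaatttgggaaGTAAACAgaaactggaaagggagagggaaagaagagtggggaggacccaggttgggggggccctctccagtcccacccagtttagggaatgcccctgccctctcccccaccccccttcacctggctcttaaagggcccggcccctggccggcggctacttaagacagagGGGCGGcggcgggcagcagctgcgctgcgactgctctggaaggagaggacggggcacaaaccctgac
IGFBP3: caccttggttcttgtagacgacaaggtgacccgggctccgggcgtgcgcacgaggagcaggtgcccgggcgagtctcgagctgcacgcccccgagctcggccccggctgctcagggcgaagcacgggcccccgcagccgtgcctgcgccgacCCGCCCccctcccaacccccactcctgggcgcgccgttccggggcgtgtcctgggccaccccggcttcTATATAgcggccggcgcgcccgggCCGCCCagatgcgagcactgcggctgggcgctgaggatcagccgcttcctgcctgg
IGFBP2: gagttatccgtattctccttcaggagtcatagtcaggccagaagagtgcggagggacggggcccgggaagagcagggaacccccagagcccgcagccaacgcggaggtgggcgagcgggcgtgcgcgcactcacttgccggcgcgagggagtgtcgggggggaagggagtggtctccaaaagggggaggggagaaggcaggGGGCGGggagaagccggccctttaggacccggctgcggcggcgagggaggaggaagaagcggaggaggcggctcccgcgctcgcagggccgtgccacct
The IGFBP6 window held 1 GC box and 1 forkhead core, and the IGFBP3 window held 2 GC boxes and 1 TATATA. The IGFBP2 window held 1 GC box. Of 35116 windows of this length, 45.0% held GGGCGG, so the GC box is common. The forkhead core was in 3.42% of them, TATATA in 3.99%, the TATA box TATAAA in 11.5% and the E-box CACGTG in 7.26%. Windows were listed for 8 of the 10 genes, 10 windows in all, and GGGCGG was found for 7 genes, all but IGFBP5. The forkhead core was found for IGFBP6 alone, TATATA for IGFBP3 and TATAAA for IGFBP4, and the E-box for IGF2R, where it occurred 3 times. A p53 half-site, the 10-base unit of the p53 response element, was searched for as well. It is present in 6.63% of all windows and was found in 1 of the 10 windows here, the one of the 3 for IGFBP2 at chr2:216659317-216659616. Each motif was counted on its own, whether or not it shares bases with another. A match of letters is not evidence of binding, and no match says only that the letters are not in this window.

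Per length of exon, the binding proteins IGFBP4 and IGFBP3 stood far above the rest of the axis. IGFBP4, an inhibitory binding protein that the protease PAPPA cleaves, had 510 CPM per kb in the combination, 445 with radiation alone, 392 with exercise alone and 418 in control. IGFBP3 followed with 462, 356, 214 and 250 CPM per kb in the same libraries. The other genes lay between 4.56 and 67.8 CPM per kb. IGFBP6 ranked above IGFBP7 and IGFBP1 in both irradiated libraries (67.8 CPM per kb in the combination and 63.3 with radiation alone) and below them in the other 2 (26.5 with exercise alone and 29.5 in control). IGFBP5, which binds to the extracellular matrix, was lowest in every library, at 4.56 to 5.16 CPM per kb. IGF1R lay at 15.6 to 21.9 CPM per kb and IGF2R at 7.69 to 8.57.

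Most neighbors in this order were apart by more than counting error. The intervals overlapped for IGFBP1 and IGFBP7 with radiation alone (41.3 and 40.7 CPM per kb), for IRS2 and IGFBP2 with exercise alone (16.8 and 15.4), and for IGFBP7 and IGFBP1 in control (36.4 and 34.5). The place of a gene depends on what counts as its length. Whether reads in introns entered the counts cannot be told from these values, so the order per exon length carries this limit. The deposited FPKM use the whole gene span, introns included, to within 0.1% for each of the 10 genes. On that scale IGFBP3 (132 in the combination and 75.2 in control) came before IGFBP4 (76.9 in the combination and 66.5 in control). The lowest gene there was IGFBP2, or IGF2R with exercise alone, and not IGFBP5. IGFBP6 lay above IGFBP7 in every library by FPKM (8.76 and 0.856 in control), while its change of place with IGFBP1 remained.

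**Figure D1:**
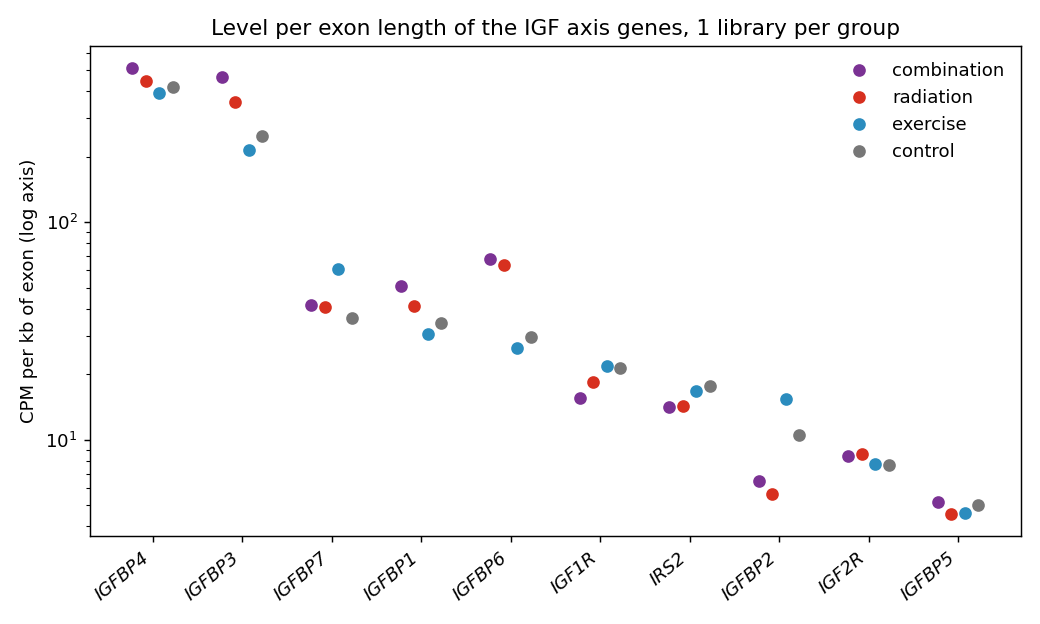
CPM per kb of exon (y axis, log scale) of the 10 IGF axis genes (x axis, ordered by the control library), with 1 colored point per library. IGFBP4 and IGFBP3 lie at 214 to 510 CPM per kb in every library, while the other genes lie at 67.8 or below.

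IGFBP6, a binding protein with a preference for IGF2, was the gene of the axis past 2-fold above control in both irradiated libraries. It had 2982 reads in the combination, 2956 with radiation alone, 1232 with exercise alone and 1417 in control, or 91.1, 85.0, 35.7 and 39.7 CPM. Both irradiated libraries were high and both unirradiated libraries low, with a wide gap between them. Against control it was 2.29-fold higher in the combination (95% interval 2.15 to 2.45) and 2.14-fold higher with radiation alone (2.01 to 2.28). In the combination it was 2.55-fold higher than with exercise alone (2.39 to 2.73). The gene lies at chr12:53097667-53102340 on the plus strand, and no other gene of the count tables overlaps it. In the same libraries the fibroblast markers summed to 208, 253, 379 and 372 CPM, lower where IGFBP6 was higher. Of the macrophage markers, CD68 was higher in the irradiated libraries (110, 101, 44.6 and 44.3 CPM), as was LYZ, while CSF1R, the most abundant of them, was lower there (251, 239, 267 and 278 CPM), as was ITGAM.

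IGFBP3 was higher in the irradiated libraries too, and highest in the combination. Its reads numbered 39851 in the combination, 32576 with radiation alone, 19486 with exercise alone and 23485 in control, or 1217, 937, 564 and 658 CPM. Each of the 4 libraries lay outside the counting interval of the others. It was 1.85-fold higher in the combination than in control (1.82 to 1.88) and 1.42-fold higher with radiation alone than in control (1.40 to 1.45), both short of 2-fold. Between the combination and exercise alone it was 2.16-fold higher (2.12 to 2.20). The combination exceeded radiation alone by 1.30-fold (1.28 to 1.32), the largest ratio of the 10 genes in that comparison.

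IGFBP1, a binding protein known in liver for its repression by insulin, lies next to IGFBP3 on chromosome 7. The 2 genes point toward each other (IGFBP1 at chr7:45888488-45893660 on the plus strand, IGFBP3 at chr7:45912245-45921272 on the minus strand) with 18.6 kb between their ends. IGFBP1 had 83.8 CPM in the combination, 68.2 with radiation alone, 50.6 with exercise alone and 57.1 in control. This is the same order of the 4 libraries as for IGFBP3, with smaller ratios. IGFBP4 and IGFBP6, which lie on other chromosomes, had this order too, so it is not particular to these neighbors. IGFBP1 was 1.47-fold higher in the combination than in control (1.39 to 1.56) and 1.20-fold higher with radiation alone than in control (1.13 to 1.27).

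IGFBP2, which promotes growth in several tumor types, was lower in both irradiated libraries and higher with exercise alone. It had 331 reads in the combination, 306 with radiation alone, 836 with exercise alone and 588 in control, or 10.1, 8.80, 24.2 and 16.5 CPM. It had the widest range of the 10 genes over the 4 libraries. Its ratio to control was 0.614 in the combination (0.535 to 0.703), 0.534 with radiation alone (0.464 to 0.615) and 1.47 with exercise alone (1.32 to 1.64). In the combination it was at 0.418 of its level with exercise alone (0.367 to 0.475), past the 2-fold threshold. The interval of the ratio of the combination to radiation alone, 0.98 to 1.35, includes equality.

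Over all 19392 other genes compared, the 3 whose log2 ratios to control in the 3 treated groups lay nearest to those of IGFBP2 were RRM2, KIF2C and BIRC5. The measure was the Euclidean distance over these 3 values, which was 0.0523 for RRM2 (a subunit of ribonucleotide reductase), 0.091 for KIF2C (a kinesin of the mitotic spindle) and 0.0982 for BIRC5 (survivin). BIRC5 had 468 reads in the combination, 418 with radiation alone, 1255 with exercise alone and 835 in control. The 3 ratios behind each distance share the control library.

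IGFBP5 did not follow its neighbor. It lies 7.67 kb from IGFBP2 on chromosome 2, the 2 genes again pointing toward each other (IGFBP2 at chr2:216632828-216664436 on the plus strand, IGFBP5 at chr2:216672105-216695549 on the minus strand). Its level was 32.1 CPM in the combination, 28.3 with radiation alone, 28.5 with exercise alone and 31.1 in control. The ratio to control was 1.03 in the combination (0.949 to 1.13), which includes equality and turns below 1 when libraries are scaled by total counts.

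IGFBP7, a secreted protein of vessels and stroma that binds IGFs weakly, was high in 1 library, exercise alone. It had 2470 reads in the combination, 2567 with radiation alone, 3842 with exercise alone and 2357 in control, or 75.4, 73.8, 111 and 66.0 CPM. The other 3 libraries lay close together. With exercise alone it was 1.68-fold higher than in control (1.6 to 1.77), while the combination stood at 1.02 of radiation alone (0.966 to 1.08). The antisense gene IGFBP7-AS1 overlaps IGFBP7 (chr4:57030773-57110385, minus strand) over 624 bases and had nearly the same ratio, 1.74 (1.62 to 1.88), between exercise alone and control. The strand setting of the counting is not given in the sources used here, so reads of the 2 genes cannot be told apart in the overlap. POLR2B also overlaps IGFBP7, and its part in the IGFBP7 count was not tested. The endothelial markers summed to 17.2 CPM with exercise alone and 21.8 in control, a sum that is mostly PECAM1 (484 reads with exercise alone and 655 in control). TEK, with 27 reads with exercise alone and 13 in control, and KDR, with 19 and 9, were higher with exercise alone on few reads. The rest of the list was lower there, also on few reads: CLDN5 (6 and 24), CDH5 (15 and 21), VWF (4 and 8), ESAM (36 and 46) and EMCN (2 and 3). The part of endothelial cells in the IGFBP7 level was not tested. The fibroblast sum was 379 CPM with exercise alone and 372 in control.

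IGFBP4 differed less between libraries than IGFBP3. It had 1121 CPM in the combination, 978 with radiation alone, 863 with exercise alone and 921 in control, a ratio to control of 1.22 in the combination (1.20 to 1.24) and 1.06 with radiation alone (1.05 to 1.08). Summed over the 7 binding protein genes, the level was 2630 CPM in the combination, 2179 with radiation alone, 1677 with exercise alone and 1789 in control. IGFBP3 and IGFBP4 make up most of this sum in every library.

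**Figure D2:**
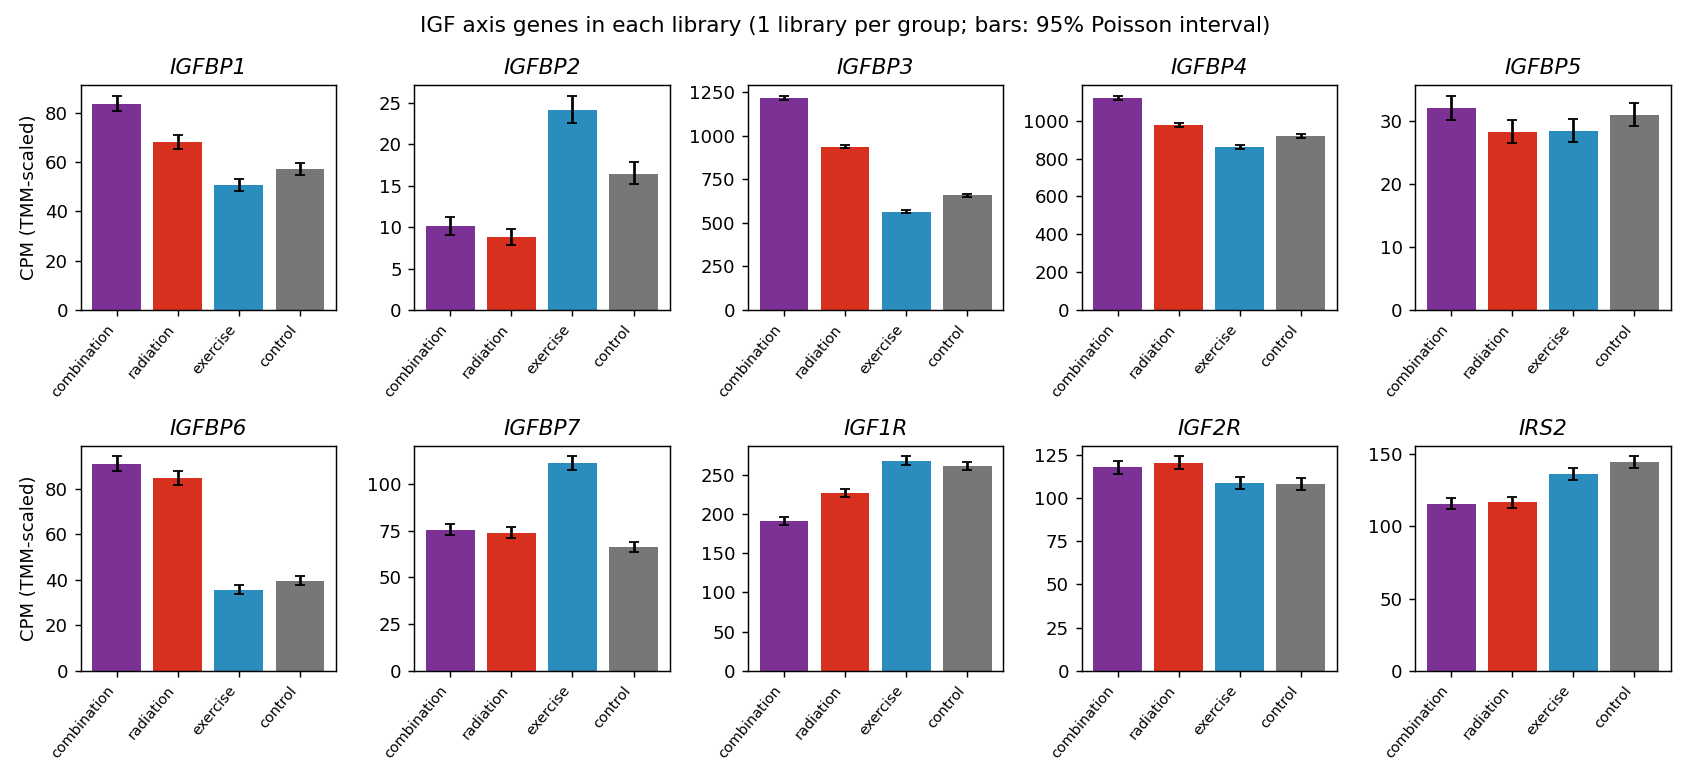
TMM-scaled CPM (y axes, from 0) of each of the 10 IGF axis genes in the 4 libraries (x axes), with 95% Poisson intervals as error bars. IGFBP6 has 2 high bars, 91.1 and 85.0 CPM, in the irradiated libraries, IGFBP7 has 1 high bar, 111 CPM with exercise alone, and IGF1R is lowest in the combination at 191 CPM.

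On the receptor side the differences were smaller. IGF1R, the signaling receptor, had 6264 reads in the combination, 7879 with radiation alone, 9265 with exercise alone and 9327 in control, or 191, 227, 268 and 261 CPM. The level was lowest in the combination and intermediate with radiation alone, and the 2 unirradiated libraries did not differ beyond counting error. Its ratio to control was 0.732 in the combination (0.709 to 0.756) and 0.867 with radiation alone (0.842 to 0.894). With exercise alone the ratio was 1.03 (0.997 to 1.06). IGF1R spans chr15:98648539-98964530 on the plus strand, and the overlapping antisense gene IRAIN had 104 to 159 reads.

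IRS2, the adaptor that links the insulin and IGF1 receptors to PI3K, was lower in both irradiated libraries. It had 116 CPM in the combination, 117 with radiation alone, 136 with exercise alone and 144 in control. The ratio to control was 0.801 in the combination (0.768 to 0.835) and 0.807 with radiation alone (0.775 to 0.841), so the irradiated pair lay together. The combination stood at 0.992 of radiation alone (0.949 to 1.04).

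IGF2R, the clearance receptor of IGF2, had the narrowest range of the 10 genes, at 118 CPM in the combination, 120 with radiation alone, 109 with exercise alone and 108 in control. Its largest ratio was 1.11 (1.07 to 1.17), between radiation alone and control. The ratio of exercise alone to control was 1.01 (0.964 to 1.05), and its direction turns when libraries are scaled by total counts. AIRN, an antisense gene within the IGF2R span, had 0 reads in all 4 libraries.

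The number of IGF axis genes past 2-fold was small in each comparison and can be read against all genes. In the combination against control, 1 of the 10 genes, IGFBP6, was at least 2-fold apart, against 4.04% of all 19393 genes (2.27% higher and 1.77% lower), and 3 of 10 were at least 1.5-fold apart (IGFBP6, IGFBP3 and IGFBP2), against 12.7%. With radiation alone against control, 1 of 10 was at least 2-fold apart, again IGFBP6, against 2.78% of all genes (1.89% higher and 0.897% lower). At 1.5-fold 2 of 10 were apart, IGFBP6 and IGFBP2, against 10.1%. With exercise alone against control, 0 of 10 were at least 2-fold apart, against 1.53% of all genes (0.83% higher and 0.701% lower), and IGFBP7 alone was at least 1.5-fold apart, against 7.05%. Between the combination and radiation alone, 0 of 10 reached either threshold, against 1.3% of all genes at 2-fold (0.418% higher and 0.887% lower) and 6.57% at 1.5-fold. Between the combination and exercise alone, 3 of 10 were at least 2-fold apart, IGFBP6 and IGFBP3 higher and IGFBP2 lower, against 5.98% of all genes (2.92% higher and 3.06% lower). At 1.5-fold 4 of 10 were apart there, IGFBP1 being the other, against 16.0%. With 10 genes these shares are coarse.

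The median log2 ratio of the 10 genes to control was 0.16 in the combination, 0.12 with radiation alone and −0.09 with exercise alone, where the median over all genes was −0.02, 0.00 and 0.00. Of the 7 binding proteins, 6 lay above control in the combination, 5 with radiation alone and 2 with exercise alone, IGFBP2 and IGFBP7. Of all 19393 genes compared, 9264, 9717 and 9768 lay above control in the same order. With 7 genes these counts are coarse. These comparisons share the control library.

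**Figure D3:**
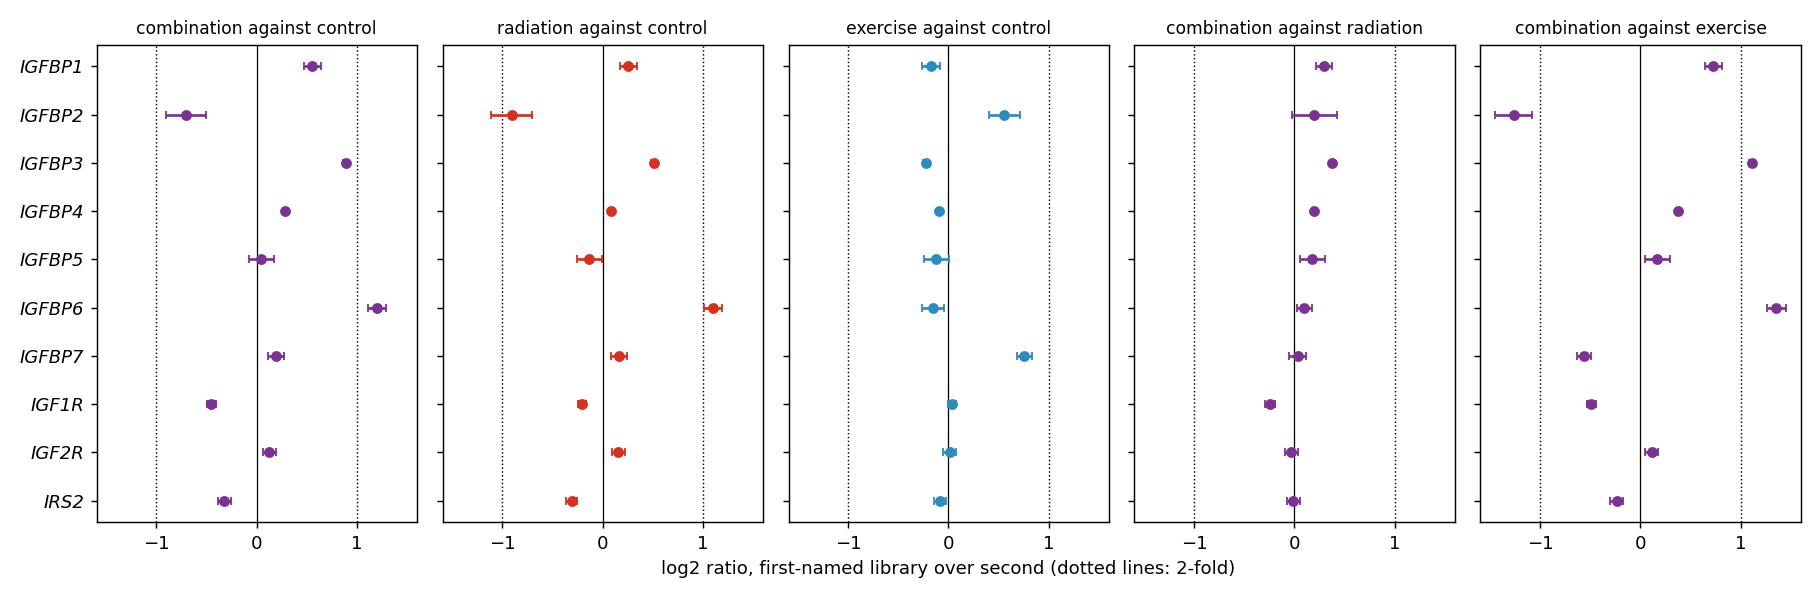
Log2 ratios (x axes, first-named library over the second) of the 10 IGF axis genes (y axis) in 5 comparisons, with exact 95% intervals of counting error; dotted lines mark 2-fold. IGFBP6 lies beyond the right dotted line in the 3 comparisons of an irradiated with an unirradiated library, and no gene lies beyond a dotted line for exercise against control or combination against radiation.

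For most binding proteins, the ratio that went with exercise lay on opposite sides of 1 in tumors with and without radiation. Of the 7 binding proteins, 5 were below control with exercise alone, and all 7 were above radiation alone in the combination, for IGFBP2 and IGFBP7 with an interval that includes equality. Over all genes, 49.6% lay below control with exercise alone and 50.1% above radiation alone in the combination. Both held for 24.7% of all genes and for 25.3% of those with a mean of at least 1000 reads. Both differences were beyond counting error for 4 of the 7, IGFBP1, IGFBP3, IGFBP4 and IGFBP6, against 4.79% of all genes and 8.34% of those with a mean of at least 1000 reads, a count made after the values were seen. The epithelial markers KRT8, KRT18 and CDH1 also passed it. For IGFBP3 the log2 ratio was 0.38 between the combination and radiation alone and −0.22 between exercise alone and control. For IGFBP1 the values were 0.30 and −0.17, for IGFBP4 0.20 and −0.09, and for IGFBP6 0.10 and −0.15. IGFBP5 had 0.18 and −0.12, and the interval of the ratio between exercise alone and control includes equality for it.

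The gap between these values is the departure of the combination from the product of the separate ratios. It was 0.60 on the log2 scale for IGFBP3 (0.56 to 0.63) and 0.47 for IGFBP1 (0.35 to 0.59). It was negative for IGFBP7, at −0.72 (−0.83 to −0.61), for IGFBP2, at −0.36 (−0.63 to −0.08), and for IGF1R, at −0.28 (−0.35 to −0.22). For IRS2 (0.07, −0.01 to 0.16) and IGF2R (−0.04, −0.13 to 0.05) the interval includes 0. No gene departed by 2-fold, and with 1 library in each group the departure cannot be set against the spread between tumors.

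**Figure D4:**
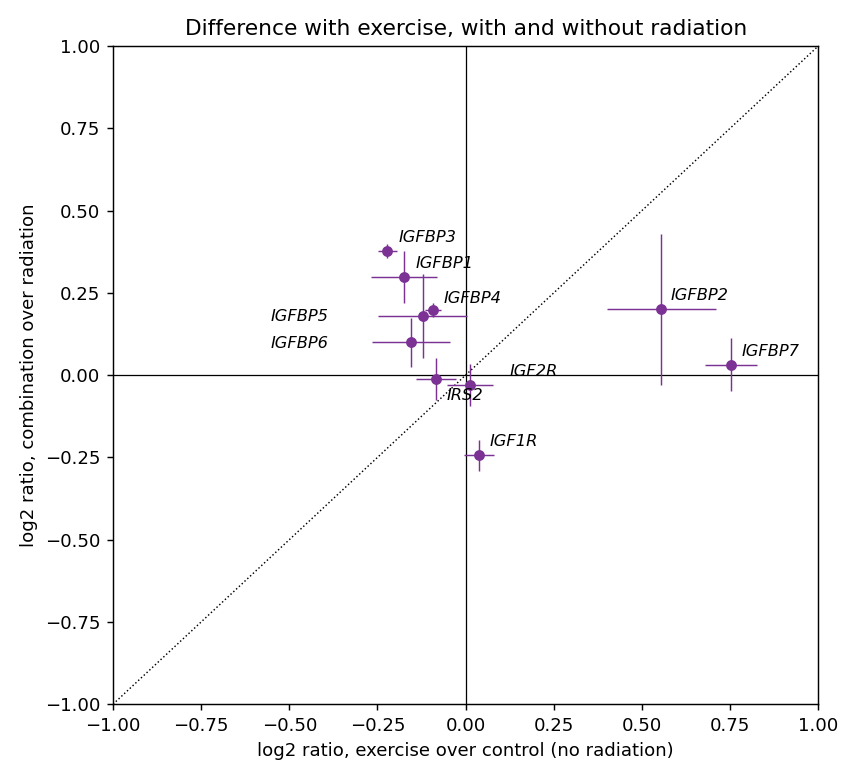
Log2 ratio of the combination to radiation alone (y axis) against that of exercise alone to control (x axis) for the 10 IGF axis genes, with exact 95% intervals of counting error; the dotted diagonal marks equal ratios. IGFBP3, IGFBP1, IGFBP4, IGFBP5 and IGFBP6 lie in the upper left, and IGFBP7 lies far to the right at 0.75 and 0.03.

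Of 39 further genes of IGF signaling in 6 lists, 34 were compared. Against control, 0 were at least 2-fold apart in the combination, 1 was higher with radiation alone, STC2, and 0 with exercise alone, where 4.04%, 2.78% and 1.53% of all genes were apart. These counts are near the shares over all genes. The median log2 ratio of the 34 was −0.01, 0.00 and 0.00 in these comparisons. STC2, a stanniocalcin that inhibits the protease PAPPA, had 269 reads in the combination, 391 with radiation alone, 134 with exercise alone and 158 in control. It was 2.54-fold higher with radiation alone than in control (2.11 to 3.08) and 1.86-fold higher in the combination than in control (1.52 to 2.27). Between the combination and exercise alone it was 2.12-fold higher (1.72 to 2.63), the only gene of these lists past 2-fold there.

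PAPPA, which releases IGFs by cleaving IGFBP4 and IGFBP5, had 220 CPM in the combination, 228 with radiation alone, 151 with exercise alone and 156 in control. Both irradiated libraries were high, with ratios to control of 1.41 (1.36 to 1.46) in the combination and 1.46 (1.41 to 1.51) with radiation alone. STC1, the related inhibitor, lay at 61.1 to 68.4 CPM in all 4 libraries.

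Of the ligands, only IGF2 had enough reads to be compared. IGF2 had 376 reads in the combination, 524 with radiation alone, 721 with exercise alone and 597 in control, and its ratio to control was 0.687 in the combination (0.602 to 0.783). The read-through gene INS-IGF2 was listed with the same 4 counts, so the reads of the 2 genes cannot be told apart. IGF1 had 18 reads in the combination, 10 with radiation alone, 6 with exercise alone and 5 in control, under the minimum for comparison. INS had 0 reads in every library, which allows a level of up to 0.0916 CPM in the combination and 0.084 in control.

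Among the receptors and adaptors, INSR, the insulin receptor, had 29.9 CPM in the combination, 27.4 with radiation alone, 23.5 with exercise alone and 28.8 in control. IRS1, the adaptor related to IRS2, had 110, 102, 85.9 and 98.9 CPM in the same order. Its ratio to control was 1.11 in the combination (1.06 to 1.16), where that of IRS2 was 0.801. GRB10, an adaptor that restrains both receptors, had 202 CPM in the combination, 254 with radiation alone, 276 with exercise alone and 214 in control. SHC1, which links the receptors to the RAS pathway, had 185, 182, 152 and 162 CPM.

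Of 13 genes of PI3K, AKT and mTOR signaling, none reached 2-fold in any of the 5 comparisons, where 1.3% to 5.98% of all genes did, so 13 genes are too few to stand apart by a count of 0. The list had a median log2 ratio to control of −0.03 in the combination. AKT2 had 188 CPM in the combination, 205 with radiation alone, 232 with exercise alone and 217 in control, and AKT1 had 105, 103, 115 and 97.8 CPM. The FOXO factors, which AKT keeps out of the nucleus, were similar across libraries, FOXO3 at 37.0 to 43.8 CPM and FOXO1 at 13.9 to 16.1 CPM. Of the proteins that bind IGF2 mRNA, IGF2BP1 had 114 CPM in the combination, 133 with radiation alone, 164 with exercise alone and 172 in control, a ratio to control of 0.663 in the combination (0.637 to 0.691). IGF2BP3 had 53.6 CPM in the combination and with radiation alone, 62.7 with exercise alone and 60.3 in control.

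**Figure D5:**
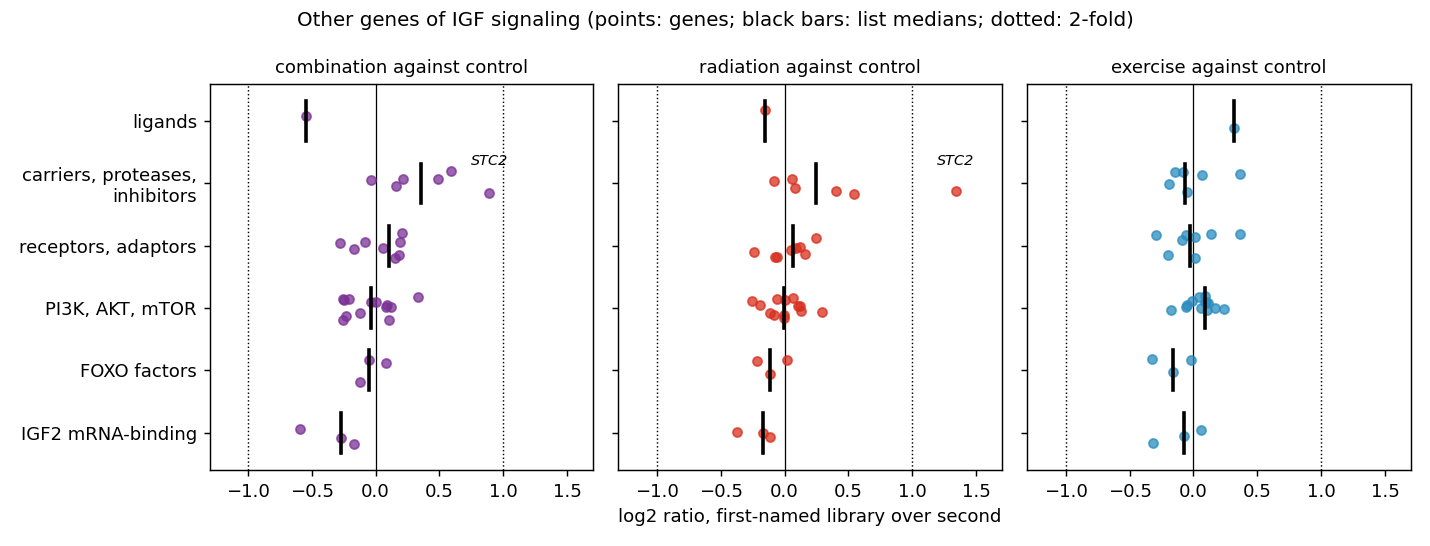
Log2 ratios (x axes) of 34 further genes of IGF signaling in 6 lists (y axis) for each treated library over control; points are genes, black bars are list medians and dotted lines mark 2-fold. STC2 with radiation alone, 2.54-fold above control, is the only point past a dotted line.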

How the data were processed

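PolyA-selected stranded libraries of 4 tumor groups were sequenced by the authors as pairs of 100 nt. The submitters' processing notes and the paper name cutadapt, Bowtie2 2.3.4.1 (GRCh38) and featureCounts 1.6.0. The authors deposited raw read counts per gene and FPKM values. The sources used here do not state the strand setting, how reads shared by genes or from mouse were handled, or whether tumors were pooled. Bowtie2 does not split reads at introns, which can lower counts of genes with many short exons.

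Groups came from the treatment labels. Counts were scaled by TMM (edgeR 4.0.16 in R 4.3.3) over 19393 genes averaging 20 or more counts, and log2 ratios used a prior of 0.5 counts. TMM factors were 0.98 in the combination, 0.982 with radiation, 1.01 with exercise and 1.03 in control. Intervals are exact at 95%: Poisson for levels and Clopper-Pearson for ratios; those of departures use the summed counting variance. PCR reads are not independent molecules, so intervals cover counting error only. A gene with at most 3 counts in both libraries of a comparison was given no fold. Exon lengths are unions of GENCODE 29 basic exons; positions and windows are RefSeq. Intervals came from scipy 1.17.1 and plots from matplotlib 3.10.9 in Python 3.11.15. The calling step was tested on simulated data. Genes named outside the 10 are the ligands, INSR, IRS1, those at 2-fold in a comparison, and the 2 highest of each list by CPM, together with overlapping genes and the 3 nearest to IGFBP2. Members and lists were chosen with earlier results of these data known. Alternatives were median-of-ratios and total-count scaling, priors of 2 and 0.1, no minimum count and a minimum of 100, FPKM with 0.1 added, and a 1.5-fold threshold.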

Additional observations from a re-analysis of the deposited data

Results flagged for a closer look

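For 4 binding proteins the difference that went with exercise had opposite signs with and without radiation, each beyond counting error; the difference between the 2 was not tested, since each group has 1 library. The gap between the log2 ratio of the combination to radiation alone and that of exercise alone to control was 0.60 for IGFBP3, 0.47 for IGFBP1, 0.29 for IGFBP4 and 0.25 for IGFBP6. Of all 19393 genes compared, 9.16% had opposite signs in either direction, each beyond counting error. Of the 7773 genes with a mean of at least 1000 reads, 16.0% did. In the direction of the 4 (exercise alone below control, combination above radiation alone), the shares were 4.79% and 8.34%. Of the 5 A549 epithelial markers, 3 passed in this direction, with gaps of 0.34 for KRT8, 0.32 for KRT18 and 0.15 for CDH1. The gaps of IGFBP4 and IGFBP6 were smaller than those of KRT8 and KRT18. The summed epithelial level was 5639 CPM in the combination and 4857 with radiation alone, and 4689 with exercise alone and 4989 in control. The summed fibroblast level was 208 CPM in the combination and 253 with radiation alone, and 379 with exercise alone and 372 in control. The part of these markers in the gap was not tested.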

How the results depend on the processing

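The number of IGF axis genes at least 2-fold apart was the same in all 5 comparisons under median-of-ratios scaling, total-count scaling, priors of 2 and 0.1 counts, FPKM with 0.1 added, no minimum count and a minimum mean of 100. With a 1.5-fold threshold the number was 3 in place of 1 for the combination against control, 2 in place of 1 for radiation against control, and 1 in place of 0 for exercise against control, by construction of a lower threshold. No gene departed by 2-fold from the product of the separate ratios under any scaling, prior or FPKM setting. Of 50 log2 ratios, 14 left the counting interval of their main value with total-count scaling and 14 with FPKM, these by at most 0.08 and 0.10; none did so with the other scaling or the 2 priors. The largest shift of all 50 was 0.18, with FPKM. The sign changed for 2 ratios near 0, under both of these settings: IGFBP5 in the combination against control (0.05, or −0.03 with total counts and −0.03 with FPKM) and IGF2R with exercise against control (0.01, or −0.02 with either). Total-count scaling moved the median of all genes in the combination against control to −0.09. No paired analysis was possible because each group has 1 library. Depth limits IGF1 and INS, which have at most 18 and 0 reads; for the 10 genes the missing replicates, not the depth, limit what can be said.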
